A study of Homo sapiens with 6 samples.

Results

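The centromere genes described here were 10 of the 32985 genes in the expression table, matched by gene name. They were CENPA itself, its loading factors HJURP, MIS18A and OIP5, and 6 genes of the constitutive centromere-associated network (CCAN), the inner layer of the kinetochore, namely CENPC, CENPH, CENPI, CENPK, CENPN and CENPT. All 10 passed the filter on low values, which asked for an average FPKM of 1 or more across libraries. Proteins of the inner centromere proper, such as AURKB and INCENP, were not among the 10 and are given below as a separate list. RNA was sequenced from 8505C cells, an established line from an anaplastic thyroid cancer (ATC), with 3 libraries for the control siRNA (siCtrl, genotype WT in the labels) and 3 for a NUF2 siRNA (siNUF2, genotype NUF2 knockdown), all labelled 24 h. The study lists a single NUF2 siRNA sequence, so the siNUF2 group stands for that siRNA in that line. The labels do not say whether the 3 libraries of a group came from separate cultures, so the p-values measure the spread between these libraries, which may be technical.

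Each chromosome is held by the spindle at its centromere. The place of the centromere is set by CENPA, a variant of histone H3 that replaces it in centromeric nucleosomes, and not mainly by DNA sequence. After each division, new CENPA is brought to the centromere by its chaperone HJURP, at sites licensed by the Mis18 complex, to which MIS18A and OIP5 (also called MIS18B) belong. The CCAN reads the CENPA nucleosome through CENPC and CENPN, and builds from there the outer kinetochore that binds microtubules. NUF2, the siRNA target, belongs to the NDC80 complex of that outer layer, which CENPT and CENPC recruit. Transcripts of CENPA and HJURP are known to rise toward G2 and mitosis in cycling cells.

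NUF2 was checked first. FPKM, fragment numbers divided by gene length and by library size, read 14.8, 14.5 and 12.2 for NUF2 in siCtrl cells against 1.53, 2.05 and 1.56 in siNUF2 cells. This left 12.4% of the control mean, the direction given by the labels. The libraries held 61257859 to 69755291 counts, and mitochondrial genes took 5.46% to 7.06% of them. KRT8, KRT18 and KRT19, keratins of epithelial cells, were all tested and together summed to between 233 and 317 FPKM, and NKX2-1, a thyroid transcription factor, stood at 18.5 FPKM in siCtrl and 18.0 in siNUF2 cells. TG, the thyroglobulin gene that defines differentiated thyroid follicular cells, was at 0.0048 FPKM in siCtrl and 0.0013 in siNUF2 cells, and 5 of the 6 thyroid markers with a row were under a mean FPKM of 1. Of the markers of other cells, all 3 of fibroblasts were under that limit, with a sum of 0.319 to 2.86 FPKM, and so were 2 of 3 of leukocytes (sum 3.48 to 7.40 FPKM, mostly CD68) and 2 of 3 of endothelial cells (sum 0.686 to 3.28 FPKM). Some of these low markers differed by replicate number in both groups. COL1A2 had 0 counts in replicate 1 of both groups and 550 to 928 in the other libraries. PTPRC had 389 (siCtrl) and 106 (siNUF2) counts in replicate 1 and at most 14 in the other libraries. The cause was not tested. In none of these lists did a tested gene separate the groups.

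CENPA rose in siNUF2 cells to 168% of its control level, and of the other 9 transcripts none passed the test without a replicate block. HJURP, the chaperone that carries CENPA, stood at 79.2% of control, CENPN, a CCAN protein that binds the CENPA nucleosome, at 123% and CENPI at 81.8%. MIS18A, OIP5, CENPC, CENPH, CENPK and CENPT had overlapping groups. By the quasi-likelihood test of edgeR, Benjamini-Hochberg adjusted over 11725 genes, 1 of the 10 genes had an adjusted p under 0.05, here named called (CENPA, higher), against 3.99% of all genes tested, 1.53% higher and 2.46% lower. When the replicate number entered as a block, 3 of the 10 did (CENPA and CENPN higher, HJURP lower), against 14.5% of all genes tested, 6.64% higher and 7.91% lower. These are bulk libraries, in which a change of a transcript in each cell cannot be told apart from a change in the share of cells, for example of cells in G2 or mitosis, that hold it.

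**Figure D1:**
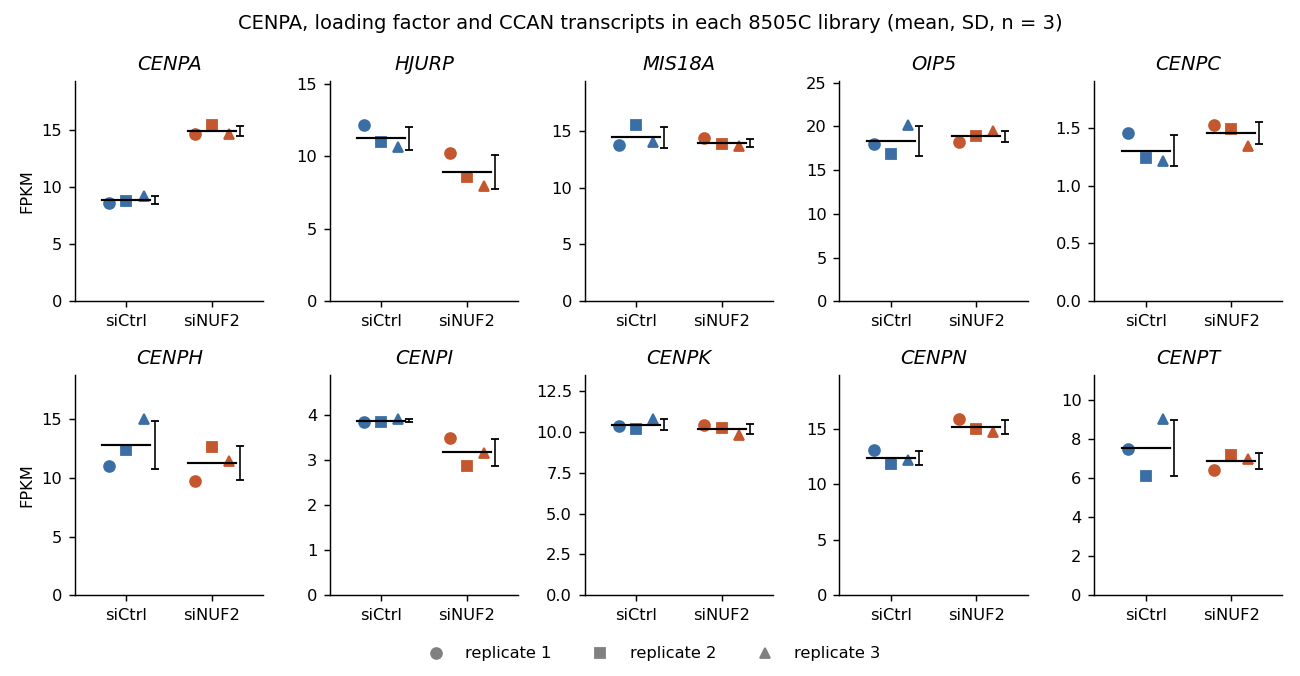
FPKM of the 10 transcripts in each library (vertical axes from 0), with siCtrl in blue and siNUF2 in orange, a marker shape for each replicate number, a line at the group mean and a bar for its SD (n = 3). CENPA stands at 8.65 to 9.27 FPKM in siCtrl and 14.7 to 15.5 in siNUF2 libraries, while the groups overlap for 6 of the 10 genes.

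CENPA (ENSG00000115163) lies on chromosome 2 from 26764289 to 26801067, plus strand, in the GRCh38 coordinates of the deposited table. The siCtrl libraries had 8.65, 8.77 and 9.27 FPKM, and the siNUF2 libraries had 14.7, 15.5 and 14.7 FPKM. The groups lay well apart, with siNUF2 above, and the spread within either group was small. The control mean of 8.90 ± 0.329 (SD, n = 3) compared with 15.0 ± 0.449 FPKM (SD, n = 3) in siNUF2 cells, with 1344 to 2426 counts per library behind it. The log2 fold change was 0.77 (standard error 0.11, 95% confidence interval 0.51 to 1.03), with an adjusted p of 0.0112 from edgeR's quasi-likelihood test and 0.00431 with the block. This rise was larger than the spread between replicates, and CENPA ranked 179 from the highest log2 fold change among the 11725 genes. Without siCtrl replicate 1 the log2 fold change was 0.75 and the adjusted p from edgeR was 0.0582. An exact two-sided permutation test of 3 libraries against 3 cannot go below p = 0.1, the value CENPA gave.

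In the table CENPA overlaps SLC35F6 over 16943 bp on the same strand, so reads of the shared part could be counted for either gene. SLC35F6 was at 11.1, 10.4 and 11.4 FPKM in siCtrl and 11.2, 10.3 and 11.2 in siNUF2 libraries. Its groups overlapped (log2 fold change 0.01, standard error 0.09, edgeR adjusted p = 0.957), and how the shared reads were assigned was not tested.

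None of the loading factors rose with CENPA. HJURP (ENSG00000123485, chromosome 2 from 233833416 to 233854566, minus strand) had an FPKM of 12.2, 11.0 and 10.7 in siCtrl and 10.2, 8.57 and 7.96 in siNUF2 libraries. The groups did not overlap, with siNUF2 below, but siNUF2 replicate 1 lay close to siCtrl replicate 3. The control mean was 11.3 ± 0.791 FPKM (SD, n = 3) and the siNUF2 mean 8.92 ± 1.17 FPKM (SD, n = 3). The log2 fold change was -0.32 (standard error 0.12, edgeR adjusted p = 0.229), which did not pass the threshold, while it did pass in the blocked fit (-0.32, standard error 0.08, edgeR adjusted p = 0.0450). In both groups HJURP was highest in replicate 1 and lowest in replicate 3, and the block removes such differences between numbers.

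MIS18A (ENSG00000159055, chromosome 21) had an FPKM of 13.7, 15.5 and 14.0 in siCtrl and 14.3, 13.9 and 13.6 in siNUF2 libraries. OIP5 (ENSG00000104147, chromosome 15), the other Mis18 protein, had 18.0, 16.8 and 20.1 FPKM in siCtrl and 18.2, 18.9 and 19.4 in siNUF2 libraries. The groups of both genes overlapped. The log2 fold change was -0.03 for MIS18A (95% confidence interval -0.29 to 0.23) and 0.06 for OIP5 (-0.22 to 0.35). OIP5 lies opposite NUSAP1 and OIP5-AS1 in the table, and whether the counting used strand is not given in the sources used here, so part of its counts could belong to those genes.

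Because CENPA and HJURP had log2 fold changes of opposite sign, the FPKM of CENPA was divided by that of a partner in the same library, for 4 partners chosen after their values were seen. CENPA stood at 0.711, 0.799 and 0.869 times HJURP in siCtrl cells and at 1.44, 1.81 and 1.84 times HJURP in siNUF2 cells. By FPKM, the HJURP transcript was thus the higher in every siCtrl library, and the CENPA transcript in every siNUF2 library. Which of them is higher depends on the lengths used, implied as at least 2242.5 bp for CENPA and 4396.0 bp for HJURP. Their canonical transcripts in GENCODE have 1389 and 3157 bases. In siCtrl replicate 3, with 1344 counts for CENPA and 3030 for HJURP, CENPA was slightly the higher per base of those transcripts. HJURP being the higher in every siCtrl library thus holds for the FPKM lengths only. The relative change of the ratio between groups does not depend on a fixed length per gene. The control ratio averaged 0.793 ± 0.0791 (SD, n = 3) and the siNUF2 ratio 1.70 ± 0.223 (SD, n = 3), 2.14 times as high. Relative to OIP5 the mean ratio went from 0.488 to 0.794, relative to MIS18A from 0.619 to 1.07, and relative to CENPC from 6.89 to 10.3. The groups did not overlap for any of the 4 ratios. As the ratios were formed after the rise of CENPA was seen and hold it as their numerator, they are given as a description with no test.

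**Figure D2:**
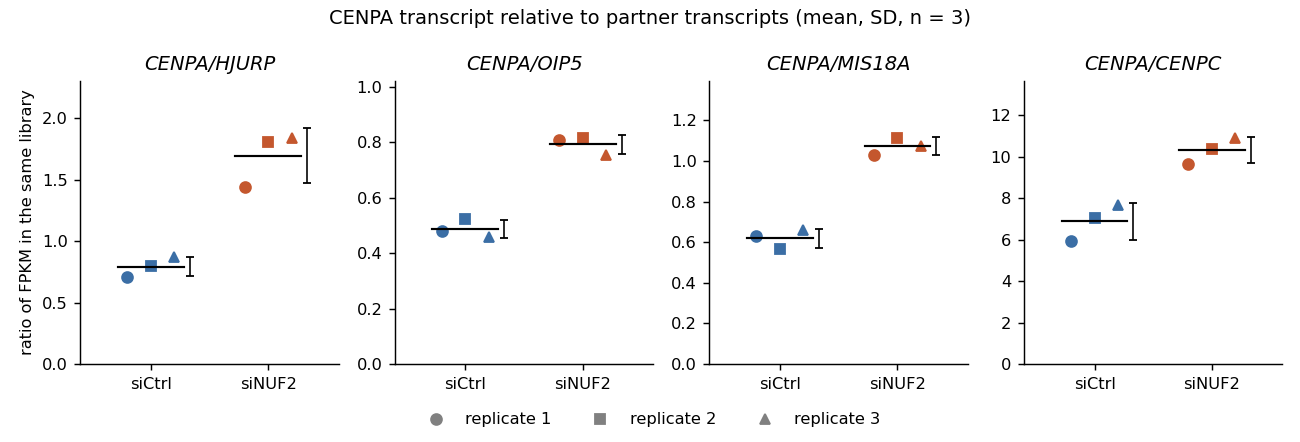
FPKM of CENPA divided by the FPKM of HJURP, OIP5, MIS18A or CENPC in the same library (vertical axes from 0), with a marker shape per replicate number, the group mean as a line and its SD as a bar (n = 3). The siNUF2 libraries lie above the siCtrl libraries in all 4 panels, with CENPA/HJURP at 0.711 to 0.869 in siCtrl and 1.44 to 1.84 in siNUF2.

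Among the CCAN genes, those that contact the CENPA nucleosome come first. CENPN (ENSG00000166451, chromosome 16 from 81006498 to 81033114, plus strand) had an FPKM of 13.0, 11.8 and 12.2 in siCtrl and 15.9, 15.0 and 14.7 in siNUF2 libraries. The lowest siNUF2 library lay above the highest siCtrl library. The mean went from 12.4 to 15.2 FPKM, both ± 0.623 (SD, n = 3), 123% of control. The log2 fold change was 0.32 (standard error 0.09) with an adjusted p of 0.112 from edgeR, above the threshold, and 0.0287 with the replicate block. CENPN shares 716 bp on the same strand with a gene listed as AC092718 (ENSG00000261061), whose log2 fold change was 0.25 (edgeR adjusted p = 0.496), and lies opposite CMC2 over 398 bp, so part of its counts could belong to those genes. CENPC (ENSG00000145241, chromosome 4), which links that nucleosome to the MIS12 complex, was the least abundant of the 10 per length, at 1.46, 1.24 and 1.21 FPKM in siCtrl and 1.52, 1.49 and 1.34 in siNUF2 libraries. Its groups overlapped, with a log2 fold change of 0.18 and a 95% confidence interval from -0.18 to 0.54.

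CENPH, CENPI and CENPK encode subunits of a single CCAN subcomplex. CENPI (ENSG00000102384, chromosome X) had 3.85, 3.85 and 3.91 FPKM in siCtrl and 3.48, 2.87 and 3.14 in siNUF2 libraries. The siCtrl libraries hardly differed from each other (SD 0.0339) and lay above all siNUF2 libraries (SD 0.309), yet the log2 fold change of -0.27 (standard error 0.13) had an edgeR adjusted p of 0.346, and 0.190 with the block. CENPH (ENSG00000153044, chromosome 5) had 11.0, 12.4 and 15.0 FPKM in siCtrl and 9.75, 12.6 and 11.4 in siNUF2 libraries, an overlap with siCtrl replicate 3 at the top. CENPK (ENSG00000123219, chromosome 5) was the steadiest, between 9.81 and 10.8 FPKM in all 6 libraries. The 3 genes of this subcomplex therefore had log2 fold changes of -0.17, -0.27 and -0.02, and none passed the threshold in either fit.

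CENPT (ENSG00000102901, chromosome 16), the CCAN protein that recruits the NDC80 complex of NUF2, had 7.48, 6.12 and 9.03 FPKM in siCtrl and 6.44, 7.18 and 6.99 in siNUF2 libraries. The siNUF2 libraries lay within the siCtrl range. The log2 fold change was -0.11 (95% confidence interval -0.46 to 0.23), and without siCtrl replicate 3 its sign turned (0.037). CENPT lies opposite NUTF2 and THAP11 in the table. For the 6 genes with overlapping groups, the 95% confidence intervals of the fold lay between 0.689 (CENPH) and 1.45 (CENPC). The 1.70-fold fitted for CENPA lay above every one of them. Its own 95% confidence interval, 1.43 to 2.04, began slightly below the upper end for CENPC.

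**Figure D3:**
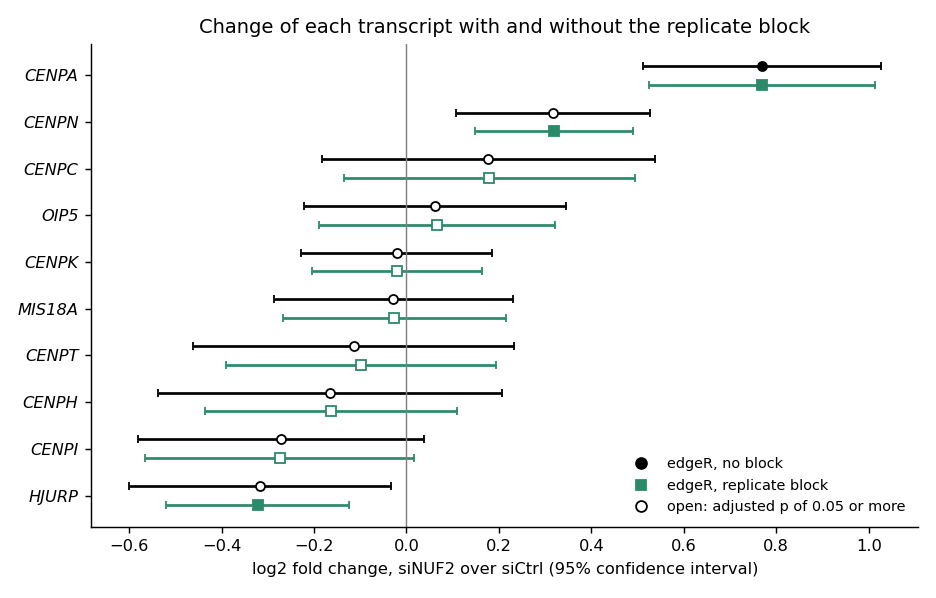
Log2 fold change of each of the 10 transcripts in siNUF2 over siCtrl cells with its 95% confidence interval, from edgeR without a block (black circles) and from the fit blocked by replicate number (green squares), where filled symbols have an adjusted p under 0.05. CENPA, at 0.77, is the only filled circle, and HJURP and CENPN are filled with the block as well.

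Of the 10 genes, 2 had all siNUF2 libraries above all siCtrl libraries (CENPA, CENPN) and 2 had all below (HJURP, CENPI). Over all genes tested, the groups did not overlap in 23.9%, 10.5% higher and 13.4% lower. The median log2 fold change of the 10 was -0.02, against 0.01 for all genes tested. Of the other 9, the largest log2 fold change in either direction was 0.32 in size, against 0.77 for CENPA.

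Levels were then ordered by FPKM, a scale per length, so the order depends on the length used for each gene. Counts and FPKM implied at least 4965.2 bp for CENPK and 1381.3 bp for OIP5. Their canonical transcripts in GENCODE have 1731 and 1201 bases. In siCtrl libraries CENPK had 3466 to 3611 counts and OIP5 1631 to 1799. Per base of those transcripts, CENPK was thus above OIP5 in every siCtrl library. The ranks below hold for FPKM only, and the whole order by those transcript lengths was not tested. In siCtrl cells OIP5 was the highest at 18.3 FPKM, followed by MIS18A (14.4), CENPH (12.8), CENPN (12.4), HJURP (11.3), CENPK (10.5), CENPA (8.90), CENPT (7.54), CENPI (3.87) and CENPC (1.30). The libraries of neighbours overlapped from MIS18A down to CENPK and between CENPA and CENPT, so these neighbours did not differ beyond their spread. OIP5 lay apart from MIS18A, CENPK from CENPA, CENPT from CENPI and CENPI from CENPC. In siNUF2 cells CENPA was at rank 3 with 15.0 FPKM, overlapping with CENPN (15.2) and apart from MIS18A (13.9), while HJURP (8.92) was at rank 7, against rank 5 in siCtrl cells.

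Promoter sequence was looked at because CENPA and HJURP, which share a cell-cycle pattern in general, had log2 fold changes of opposite sign. The promoters of RefSeq (build GRCh38.p14, 250 bases before to 50 after the start) held 8 of the 10 genes, all but MIS18A and CENPH. Genes that peak in G2 and mitosis often carry a CHR element bound by the DREAM and MMB complexes, with CCAAT boxes bound by NF-Y upstream of it. The words searched were the CHR core TTTGAA and its reverse complement TTCAAA, the CHR variant TTCGAA, which is its own reverse complement, and the box CCAAT and its reverse complement ATTGG. This covers both strands, with positions counted from the start as 0. Capitals mark these words in the promoters of CENPA (chr2:26785806-26786105, plus strand) and HJURP (chr2:233854486-233854785, minus strand), both printed 5′ to 3′ in the direction of the gene.
CENPA: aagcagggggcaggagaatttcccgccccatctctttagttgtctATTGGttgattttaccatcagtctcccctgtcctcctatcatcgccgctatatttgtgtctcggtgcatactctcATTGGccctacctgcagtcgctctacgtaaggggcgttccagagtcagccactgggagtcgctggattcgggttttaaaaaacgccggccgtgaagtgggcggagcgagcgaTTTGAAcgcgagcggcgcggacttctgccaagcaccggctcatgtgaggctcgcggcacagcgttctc
HJURP: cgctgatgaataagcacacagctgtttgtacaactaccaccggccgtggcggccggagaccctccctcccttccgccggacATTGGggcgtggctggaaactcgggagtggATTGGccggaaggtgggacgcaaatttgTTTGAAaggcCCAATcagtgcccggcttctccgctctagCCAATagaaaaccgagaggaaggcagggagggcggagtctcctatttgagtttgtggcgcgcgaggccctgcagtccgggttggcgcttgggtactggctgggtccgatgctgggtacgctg

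CENPA held TTTGAA from -18 to -13, with ATTGG at -205 and -130. HJURP held TTTGAA from -111 to -106, with 4 CCAAT or ATTGG words at -169, -139, -101 and -72. Both genes thus carried the same kinds of words. A CHR core was found in 4 of the 8 promoters (CENPA, HJURP, CENPC and CENPN) and in 15.2% of all 35116 promoters, and the variant in 1 of 8 (OIP5) and 1.45%. A CCAAT box was found in 6 of 8 and in 34.6% of all, and at least 2 of them in 5 of 8 and in 10.8% of all. A CHR core or variant together with a CCAAT box was found in 5 of 8 and in 6.38% of all. In CENPN and OIP5 the CHR word lay after the start, at 3 to 8 and 1 to 6. CENPI and CENPT held none of the words in these windows. The windows of CENPA, CENPI and CENPN lie inside the gene spans of the deposited table, all on the plus strand. Those spans begin at 26764289, 101098218 and 81006498, and the windows at 26785806, 101100808 and 81006964. Sequence around the starts of those spans was not searched. No word overlapped another in the 8 promoters, and a match is a description of letters only.

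**Figure D4:**
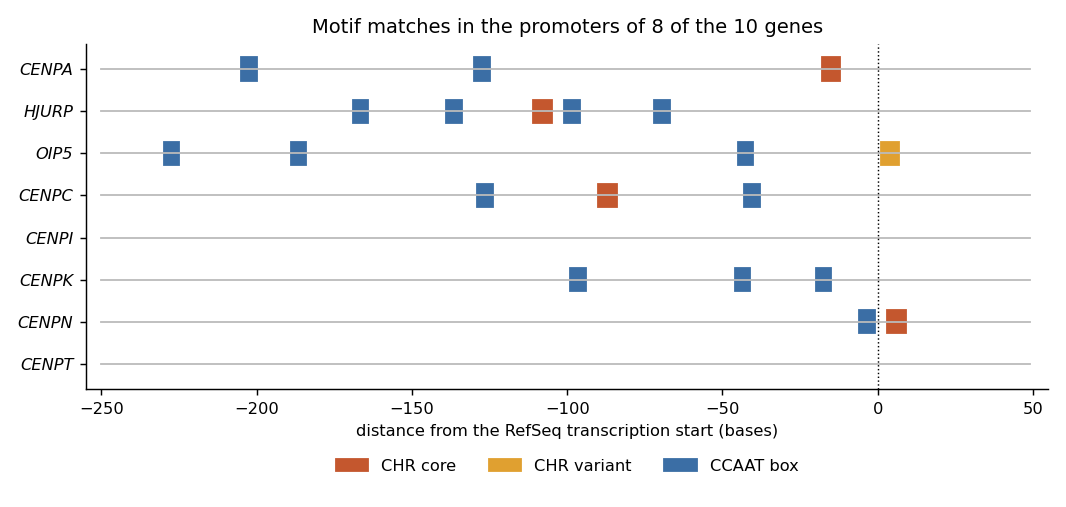
Positions of the CHR core, its variant and CCAAT boxes on either strand in the promoters of 8 of the 10 genes, in bases from the RefSeq transcription start (dotted line at 0). CENPA has a CHR core at -18 and HJURP one at -111, and CENPI and CENPT have no match.

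The transcripts were also searched for TATGGAA, which pairs with the seed (bases 2 to 8) of the siRNA's antisense strand, in the canonical transcripts of GENCODE release 44. A 3′ UTR with this word was found in 0 of the 10 genes and in 15.0% of 10230 genes tested. In the 3′ UTR or coding sequence it was found in 5 of the 10 (HJURP, CENPC, CENPH, CENPI and CENPK, each in coding sequence) and in 26.9% of genes tested. CENPA, OIP5 and CENPN held not even the 6-base word ATGGAA in either part, as did 32.6% of genes tested. HJURP, the member with the lowest log2 fold change, held its TATGGAA in the coding part of exon 8 of 9, on chromosome 2 of GRCh38 from 233840935 to 233840941. NPM1, a gene of the licensing list below that fell below every one of the 10 in log2 fold change, held 1 in its 3′ UTR, in exon 11 of 11 on chromosome 5 from 171410780 to 171410786. Of the other genes that the lists below give as lower with the block, CENPP held 1 in its 3′ UTR, CENPQ held none there and 1 in its coding sequence, and RBX1 held none in either. Both sites are shown with capitals for the word.
HJURP: ataaagcaagTATGGAAgttcgatatc
NPM1: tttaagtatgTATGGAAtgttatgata

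Whether these words had a part in any of the changes was not tested. The coding-sequence words of CENPC, CENPH, CENPI and CENPK went with log2 fold changes of 0.18, -0.17, -0.27 and -0.02.

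The rest of the pathway was taken from lists. Of 11 remaining CCAN and centromere DNA-binding genes, all tested, 0 had an adjusted p under 0.05 in edgeR without a block (3.99% of all genes tested did). An unadjusted p under 0.05 was found for 4 of them (18.2% of all genes tested). DESeq2 called 1 of the 11 and limma 0, against 972 and 383 of the 11725 genes tested. With the block 3 of the 11 were called, against 14.5% of all genes tested, CENPP and CENPQ lower and CENPW higher. CENPP was at 3.66 ± 1.07 FPKM (SD, n = 3) in siCtrl and 2.19 ± 0.488 (SD, n = 3) in siNUF2 cells. It lies opposite IPPK in the table, whose FPKM went from between 4.40 and 5.11 in siCtrl libraries to between 1.12 and 1.63 in siNUF2 libraries (log2 fold change -1.75, edgeR adjusted p = 0.00377), and reads of both genes cannot be told apart without strand. CENPQ, a subunit of the subcomplex that contains CENPU, was at 75.7% of control (log2 fold change -0.38, edgeR adjusted p = 0.152, and 0.0463 with the block). CENPW, the histone-fold partner of CENPT, was at 123% of control (0.31, edgeR adjusted p = 0.257, and 0.0474 with the block). The median of the 11 was 0.18.

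Of 14 other genes for licensing, deposition or retention of CENPA, 1 was called without the block, NPM1, lower. Of all genes tested, 3.99% were called in that fit, 2.46% of them lower as a share of all tested. An unadjusted p under 0.05 in edgeR was found for 6 of the 14 and for 18.2% of all genes tested. NPM1 encodes nucleophosmin, an abundant nucleolar histone chaperone found with CENPA before its deposition. Its mean went from 454 ± 25.6 FPKM (SD, n = 3) in siCtrl to 237 ± 27.0 (SD, n = 3) in siNUF2 cells, 52.3% of control (log2 fold change -0.92, standard error 0.10, edgeR adjusted p = 0.00508). NPM1 has processed pseudogenes of near-identical sequence, so its level is uncertain to the extent that reads were split among them. With the block, 4 of the 14 were called, against 14.5% of all genes tested. RBX1, a ring-finger subunit of cullin ubiquitin ligases, was lower (72.8% of control, edgeR adjusted p with the block 0.0239) along with NPM1. COPS8, a subunit of the COP9 signalosome (126%, edgeR adjusted p with the block 0.0216), and RBBP7, a histone-binding protein (117%, edgeR adjusted p with the block 0.0449), were higher. PLK1, a mitotic kinase that licenses the deposition, had a log2 fold change of 0.07 (edgeR adjusted p = 0.827).

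Of 10 inner centromere genes, 0 were called without the block (3.99% of all genes tested were), and 2 had an unadjusted p under 0.05 (18.2% of all genes tested). DESeq2 called 1 of the 10 and limma 0, against 972 and 383 of the 11725 genes tested. With the block 2 of the 10 were called, near the 14.5% of all genes tested, both higher and both of the chromosomal passenger complex. AURKB and CDCA8, also of that complex, were called in neither fit, with log2 fold changes of 0.23 and -0.14. The groups of AURKB overlapped, and CDCA8 had all siNUF2 libraries below all siCtrl libraries. BIRC5 (survivin) went from 22.9 to 31.9 FPKM (log2 fold change 0.50, edgeR adjusted p = 0.0548, and 0.00550 with the block), and INCENP had a log2 fold change of 0.34 (edgeR adjusted p = 0.238, and 0.0340 with the block). SGO1, the shugoshin that guards centromeric cohesion, had one of 0.27, and BUB1, the kinase upstream of it, the lowest of this list at -0.19. In the outer kinetochore list of 10 genes only NUF2, the siRNA target, was called, in both fits. Of all genes tested, 3.99% were called without the block and 14.5% with it. The other 9 had log2 fold changes from -0.21 (KNL1) to 0.16 (SPC25), with NDC80, the direct partner of NUF2, at 0.03.

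The cell-cycle lists were set beside CENPA because its transcript is periodic. Of 12 G2/M markers, 0 were called without the block, against 3.99% of all genes tested, and 2 had an unadjusted p under 0.05, against 18.2%. DESeq2 called 0 of the 12 and limma 0, against 972 and 383 of the 11725 genes tested. A positive log2 fold change was found for 10 of the 12 and for 51.1% of all genes tested, and the median of the 12 was 0.12. In the blocked fit, which called 14.5% of all genes tested, BUB1B (0.30) and CENPF (0.31) were called, both higher, and both encode large kinetochore-bound proteins. CCNB1, the mitotic cyclin, had a log2 fold change of 0.02, CDC20 one of -0.03 and UBE2C, at -0.18, the lowest. Of 12 S-phase markers, 0 were called without the block, against 3.99% of all genes tested, and 4 had an unadjusted p under 0.05, against 18.2%. DESeq2 called 1 of the 12 and limma 0, against the same 972 and 383 genes. The median log2 fold change of the 12 was 0.28. In the blocked fit 5 of the 12 were called, all higher, against 6.64% of all genes tested that were called higher, with log2 fold changes from that fit of 0.54 for RRM2, 0.45 for MCM2, 0.38 for MCM3, 0.32 for MCM5 and 0.29 for MCM7. RBBP7, MCM2 and MCM7 overlap genes on the opposite strand in the table, and MCM7 also MIR25 and MIR93 on its own strand. Every gene of both lists had a log2 fold change below the 0.77 of CENPA. The study reports, by flow cytometry, an accumulation of ATC cells in G2/M after NUF2 knockdown. The time after transfection is not stated for that measurement. Whether a change in cell-cycle composition had a part in the rise of CENPA was not tested.

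**Figure D5:**
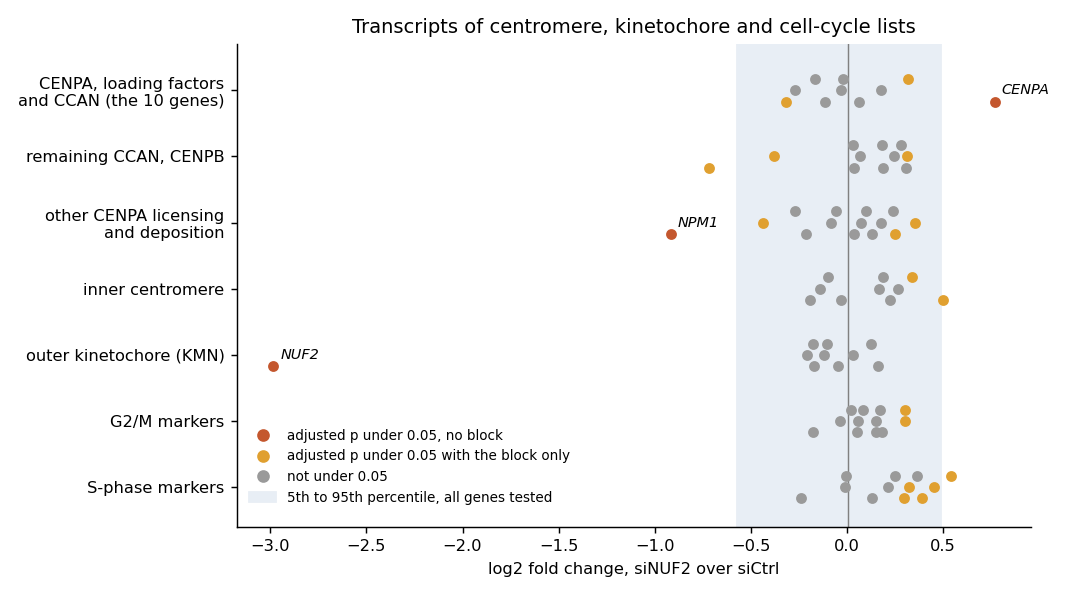
Log2 fold change (siNUF2 over siCtrl) of the single genes of each list, with the colour showing whether the adjusted p from edgeR was under 0.05 without the block, with the block only, or in neither, and the shaded band holding the 5th to 95th percentile of all genes tested (-0.57 to 0.49). CENPA at 0.77 and NPM1 at -0.92 are the genes called without the block apart from NUF2.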

How the data were processed

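PolyA RNA of 6 libraries of 8505C cells, 3 siCtrl and 3 siNUF2, was sequenced as paired ends. Read quality was controlled by the authors in fastp, mapping to GRCh38 was done in HISAT2, and StringTie gave the expression values. Versions, annotation release, strand setting and the tool that made the counts are not given in the sources used here. The authors deposited raw counts, whole numbers per gene without normalization, and FPKM, scaled by gene length and library size. For each of the 10 genes, the length implied by count and FPKM varied by at most 1.02-fold among libraries, so a single length per gene stands behind both. All 12 per-sample columns were used, and no row lacked a gene name. Columns labelled KD were assigned to siNUF2 by genotype and number.

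Counts of the 11725 genes (of 32985) whose FPKM averaged 1 or more were scaled by TMM and tested by quasi-likelihood in edgeR, at a Benjamini-Hochberg adjusted p of 0.05. Fold changes, standard errors and 95% confidence intervals come from that fit. Since the table holds counts, the study's F-test of nested linear models was only an alternative. It was run here on log2(FPKM + 1), with adjusted p-values and no cut on fold change. The study's own rule also set a cut on fold change and names P without an adjustment, so the numbers called differ in kind. The other alternatives were the replicate block, DESeq2, its size factors, no filter, a filter at a mean FPKM of 5, limma on log2(FPKM + 1) and log2(FPKM + 0.1), and leaving out each library. No library was a copy of another, since chi-square values between replicates were 90.1 to 132 per degree of freedom. Replicate numbers pair the libraries, by correlations of deviations from the group means of 0.328 to 0.438 for equal numbers and -0.269 to -0.140 for others. The main fit leaves this pairing out, and the blocked fit given beside it takes it in. Of the 10 genes, HJURP and CENPN passed the threshold only in the blocked fit. What libraries of the same number share is not stated. With 61257859 to 69755291 counts per library, every value of the 10 genes rests on 767 counts or more, and counting error covers neither culture nor library preparation.

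The genes named are the 10, NUF2, and from each list every gene called in either fit or its highest and lowest. The other genes named with values (SGO1, BUB1, AURKB, CDCA8, NDC80, PLK1, CCNB1, CDC20, overlapping neighbours and markers) were added after their values were seen. The 10 genes and all lists were chosen with earlier results of these data known. TSHR, of the thyroid list, was not analysed here. Promoters came from RefSeq and transcripts from GENCODE release 44, whose gene coordinates equal those of the table for 8 of the 10 genes. The edgeR fits, without and with the block, were also run on simulated counts. That simulation used the same spread setting for every gene and no replicate effect, so it was simpler than these data. Software comprised DESeq2 1.42.0, limma 3.58.1 and edgeR 4.0.16 in R 4.3.3, and matplotlib 3.10.9, pandas 2.3.3, scipy 1.17.1, numpy 2.4.6 and Python 3.11.15.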

Additional observations from a re-analysis of the deposited data

How the results depend on the processing

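CENPA kept its direction in all 14 alternatives (log2 fold change 0.69 to 0.80) and an adjusted p under 0.05 in all of them but 1, the fit without siCtrl replicate 1 (0.0582). The number called among the 10 genes was 1 in the main fit, 3 with the replicate block, and 0 to 1 with each library left out in turn. Over the 11725 genes tested, 468 were called, 1705 with the replicate block, 972 with DESeq2 and 78 with the F-test on log2(FPKM + 1). With each library left out, 124 to 251 were called, a drop of over 1.5 times whichever of the 6 was left out. Without a filter 188 were called, of 32985 genes tested, so that number has another total. With the block, the lists gave 3 (remaining CCAN), 4 (licensing and deposition), 2 (inner centromere), 2 (G2/M) and 5 (S phase). DESeq2 gave 1 for remaining CCAN, 1 for inner centromere and 1 for S phase, and the F-test gave 0 for licensing and deposition, where NPM1 had an adjusted p of 0.0645. With each library left out, the lists kept their number of calls. The sign turned for MIS18A (0.0251 without siCtrl replicate 2), CENPK (0.0058 without siCtrl replicate 3 and 0.0034 without siNUF2 replicate 3) and CENPT (0.0374 without siCtrl replicate 3), whose log2 fold changes with each library left out ran from -0.0636 to 0.0251, from -0.0418 to 0.0058 and from -0.2457 to 0.0374. Leaving out a library lowers the sample number, and otherwise the causes were not tested. The median log2 fold change of all genes tested ran from -0.0145 to 0.0137 over the settings, and the block changed no other call among the 10 genes than HJURP and CENPN. CENPC and CENPI were not tested at a mean FPKM of 5, which they did not reach.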

Other observations

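The 5 genes whose log2 CPM was most like that of CENPA over the 6 libraries were ZW10 (Pearson r = 0.995), WIPI2 (0.993), MAF1 (0.993), OGFR (0.992) and PACS1 (0.992). All of these points share the 2 groups, so a high r here mostly restates a rise in siNUF2 cells with little spread within the groups, and 134 of 11724 genes had an r above 0.95. ZW10 went from 5.55 to 13.7 FPKM (log2 fold change 1.33) and OGFR from 6.77 to 16.5 FPKM (1.31). Among the other 9 centromere genes, CENPN was the most like CENPA (r = 0.939, rank 186), and CENPI (r = -0.905) and HJURP (r = -0.835) were the least. The remaining members lay between -0.318 (CENPH) and 0.644 (CENPC).

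Within the groups, single libraries departed from their group mean by at most 0.286 on the log2 CPM scale for any of the 10 genes, CENPT in siCtrl replicate 2. CENPA departed by at most 0.064, CENPK by 0.053 and CENPN by 0.077. The number of the 10 genes below their group mean was 6, 9 and 4 in siCtrl replicates 1, 2 and 3, and 4, 3 and 7 in siNUF2 replicates 1, 2 and 3.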
